A study of Bos taurus and Ovis aries and Capra hircus with 27 samples.

Results

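Gene expression in goat heart was compared with gene expression in goat liver. The comparison used 6 RNA-seq libraries, 3 of heart and 3 of liver, out of 27 in the series, which also holds goat kidney and the same tissues of cattle and sheep. All 6 libraries came from goats (Capra hircus) of an indigenous strain, for which the labels name no treatment, about 3 years old, sampled at Ya'an in Sichuan, so the groups differ in tissue alone as far as the labels go. The study's methods describe tissues taken from 3 unrelated adult females a population, so heart and liver came from the same animals, although the labels do not tie a library number to an animal. Of the 22131 goat gene models in the table, 12526 exceeded 0.5 FPKM (fragments scaled to transcript length and to the mapped fragments of the library, the study's measure of level) in at least 3 of these 6 libraries and were tested. Strand-specific mRNA libraries were made from whole tissue, so fewer cells of a type and less RNA per cell cannot be told apart. The sources used here do not say whether heart and liver were sequenced in the same runs, and a run cannot be told apart from a tissue. The study's data note lists the 3 heart libraries as deposited under other accessions as well, and names no such copies for liver. The heart columns of the table also carry another name than their labels, unlike the liver columns.

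The heart is a pump built of striated muscle. Its cells shorten when calcium binds troponin C on the thin filament, which lets myosin heads pull on actin, and they relax when an ATP-driven pump, held in check by phospholamban, returns calcium to its store. Fatty acids burned in mitochondria pay for most of this work, and creatine kinase carries the high-energy phosphate to the filaments. The liver makes most proteins of blood plasma, turns ammonia into urea, makes glucose when food is short, and oxidises drugs and steroids with cytochromes P450. In ruminants, which absorb little glucose from the gut, glucose made by the liver is a main source of blood sugar.

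The deposited table names models by identifiers only, and the cattle gene table supplied as reference held none of them. Families were therefore read from the deposited goat proteins, which covered 18215 of the 22131 models, by searching for short amino acid patterns of each family, such as GESGAGKT and close variants for the ATP site of myosin heavy chains. A pattern describes a protein and is not a name given by the study. At least 1 of the 89 patterns was found in 1209 models, of which 777 were tested. Patterns for myoglobin, haemoglobin alpha chains and natriuretic peptides were in no deposited protein, so these products are not described. The deposited set of proteins ends in the middle of an entry, so some models may lack a protein for that reason.

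Replicates of a tissue resembled each other more than the tissues did. Over tested models, Pearson's r of log2(FPKM + 1) was 0.96 to 0.98 between heart libraries, 0.92 to 0.97 between liver libraries and 0.50 to 0.56 between a heart and a liver library. Liver 1 stood apart within its tissue. In it, 130 models above 5 FPKM lay over 4 times above both other liver libraries, against 12 to 57 in the other 5 libraries. A further 135 lay over 4 times below them (both others above 5 FPKM), against 100 in heart 1 and 6 to 15 in the rest. Heart 1 thus stood apart within its tissue on the low side. The summed FPKM was 808954 to 828807 in heart and 574638 to 619613 in liver. The files give no read counts, so the depth behind each value is unknown.

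Heart and liver differed in the level of most tested models. With limma's moderated test on log2(FPKM + 1) and Benjamini-Hochberg adjustment over all 12526 models, 6612 were called at an adjusted p of 0.05 or less (52.8%), 3977 of them higher in heart (31.7%) and 2635 higher in liver (21.0%). With the library number as a block, which compares tissues within a number, 7480 were called, 58.1% of them higher in heart. The median difference of heart minus liver over all tested models was 0.13 on the log2 scale. Large differences were more often on the liver side. A difference of at least 6 on that scale was called for 201 models higher in liver and 97 higher in heart. The split of the calls depends on scale: when all libraries were brought to the same sum, 41.5% of 6816 calls were higher in heart, against 60.15% as deposited, and the median moved to -0.23. Small differences therefore have no fixed direction here, and most of the models named differ by far more. In 139 models all 3 liver libraries exceeded 10 FPKM while all 3 heart libraries were listed at 0, and the reverse held for 70 models.

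**Figure D1:**
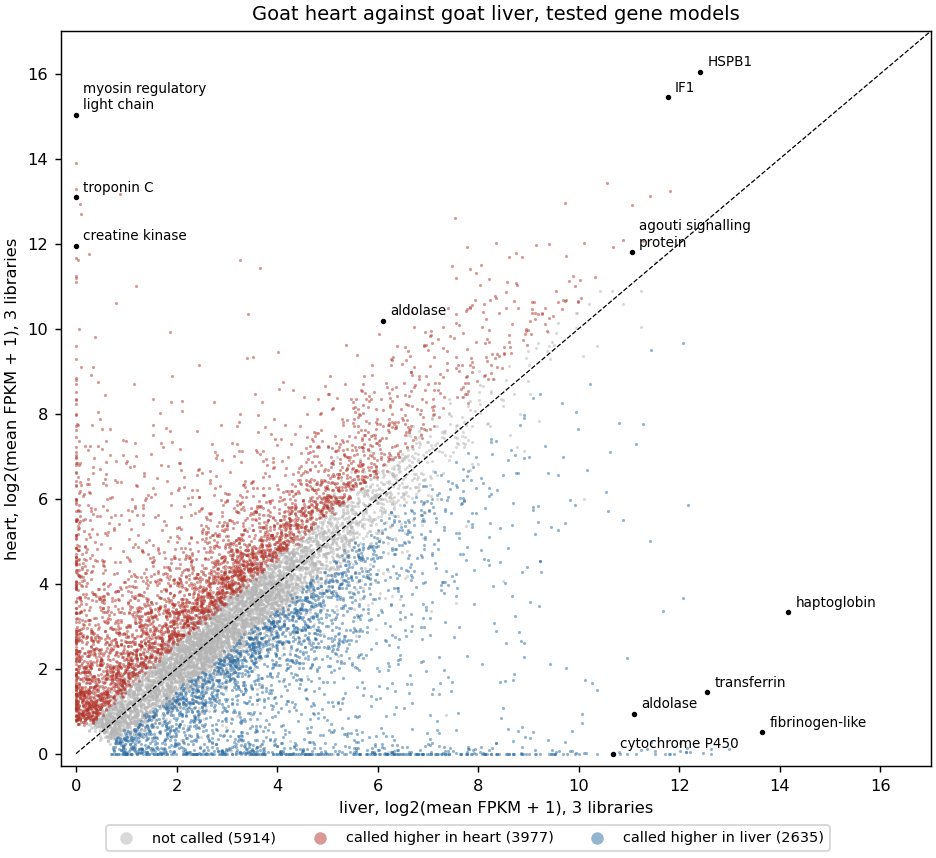
Mean level of each of the 12526 tested models in liver (horizontal axis) and heart (vertical axis), each as log2(mean FPKM + 1) over 3 libraries, coloured by call, with the diagonal of equal level dashed. Models along the left edge were close to 0 in liver, among them the myosin regulatory light chain and troponin C, and models along the lower edge were close to 0 in heart, among them a fibrinogen-like chain and a cytochrome P450.

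The filaments of the muscle cell gave the largest difference of all. The myosin regulatory light chain model GOAT_ENSBTAP00000024444-D2, whose pattern marks the small subunit that steadies the myosin head, stood at 42452, 24817 and 33617 FPKM in heart 1, 2 and 3 and was listed at 0 in all 3 liver libraries (limma adjusted p = 2.96e-08). It had the third highest mean of all models in heart. The essential light chain model GOAT_ENSBTAP00000011047-D2, the other small subunit of the head, stood at 5221, 2745 and 2455 FPKM in heart and 0.2301, 0 and 0.352 in liver. A myosin heavy chain model, GOAT_ENSP00000386041, the motor itself, stood at 922, 524 and 434 FPKM in heart and 0, 0 and 0.00867 in liver, a difference of 9.21 ± 0.29 (SE) on the log2(FPKM + 1) scale. No heart library overlapped a liver library for any of them, which held for 61.3% of all tested models.

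The regulators of the thin filament showed the same split. Troponin C, the calcium sensor (GOAT_ENSP00000232975), stood at 10219.7, 8042 and 8034 FPKM in heart and was listed at 0 in liver. Troponin T, which ties troponin to tropomyosin (goat_GLEAN_10001033), stood at 7951, 6460.3 and 5528 FPKM in heart and 0.109, 0.101 and 0 in liver, a log2 difference of 12.59 ± 0.20 (SE, limma adjusted p = 2.96e-08). The only model with the pattern of troponin I, the inhibitory subunit (GOAT_ENSP00000356281), stood at 753, 389.98 and 504 FPKM in heart and 0, 0 and 0.199 in liver. Which form of troponin I it codes for was not tested, and a form without a deposited protein would not be read. Its level is therefore not that of all troponin I. The troponin T and I models lie on the same scaffold of the goat assembly (CHIR_1.0 by the study's methods, while the sequence headers name no build), troponin I at bases 98340 to 101943 and troponin T at bases 136829 to 147103 of scaffold 1227, both on the plus strand. Tropomyosin, the rod that covers the myosin sites on actin, was read from 4 models. Of these, GOAT_ENSP00000350667 (3954, 2262 and 1993 FPKM in heart, 12.1, 10.2 and 12.5 in liver) and GOAT_ENSP00000367550 (477, 550.4 and 382 in heart, 2.88, 2.59 and 2.83 in liver) were called higher in heart, and the other 2 were not called.

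Among the filament proteins named here, actin had the widest spread among heart libraries. The model GOAT_ENSBTAP00000006532 stood at 8018, 976 and 484 FPKM in heart 1, 2 and 3 and 0.0667, 0 and 0 in liver, so heart 1 held over 8 times the level of heart 2, and the difference of 10.58 had an SE of 0.91 (limma adjusted p = 6.31e-05). Of 6 models with the actin pattern, 2 were called higher in heart (33.3%, against 31.7% of all tested models) and 4 were not called. The other called model, GOAT_ENSP00000289228, stood at 26.4, 30.2 and 34.05 FPKM in heart and 7.42, 6.73 and 7.81 in liver. The pattern may take in relatives of actin outside the filaments, which was not tested. Telethonin, which caps titin at the Z-disc (GOAT_ENSBTAP00000015579), went the other way among the hearts, with 6099, 10037 and 11494 FPKM in heart and 1.33, 0.355 and 0.775 in liver. Among 39 tested LIM proteins, many of which sit at the Z-disc and at cell contacts, 21 were higher in heart (53.8%, against 31.7% of all tested models) and 5 higher in liver (12.8%, against 21.0%), with a median log2 difference of 1.15. The LIM model GOAT_ENSP00000265968 stood at 1534, 485 and 1028 FPKM in heart and 0, 0.127 and 0 in liver, and GOAT_ENSP00000424360 at 394, 378 and 378 in heart and 14.8, 17.4 and 14.01 in liver.

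Not every carrier of a contraction pattern was higher in heart. Over the 117 tested models of these families, 54 were higher in heart (46.2%, against 31.7% of all tested models), 20 were higher in liver (17.1%, against 21.0%) and 43 were not called, with a median of 0.54. Most of the 117 were read from broad patterns, the LIM domain and the EF-hand, a calcium-binding loop that many proteins outside the sarcomere share. With these set aside, a split made after values had been seen, 34 models remained, of which 15 were higher in heart (44.1%), 7 were higher in liver (20.6%) and 12 were not called, with a median of 0.23. Of 15 myosin motor models, 3 were higher in heart (20%, against 31.7%), 6 were higher in liver (40%, against 21.0%) and 6 were not called. The pattern takes in unconventional and non-muscle myosins too. The largest on the liver side, GOAT_ENSP00000306382, stood at 6.47, 5.801 and 4.28 FPKM in heart and 88.1, 88.6 and 79.4 in liver. A regulatory light chain model, GOAT_ENSP00000217652, was called higher in liver (12.7, 26.6 and 25.2 FPKM in heart, 29.6, 43.7 and 66.1 in liver, limma adjusted p = 0.0472) while the other 3 were higher in heart, but that call was lost without heart 1, 2 or 3 or liver 2 or 3 (adjusted p = 0.14, 0.0626, 0.0702, 0.107 and 0.124). Together the contraction families held 9.10% ± 1.90 (SD, n = 3) of the summed FPKM in heart and 0.346% ± 0.0208 (SD, n = 3) in liver. The regulatory light chain GOAT_ENSBTAP00000024444-D2 alone was 4.11% of the heart sum. The groups did not overlap, and the exact two-sided permutation test gave p = 0.1, the smallest that 3 libraries against 3 can give.

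**Figure D2:**
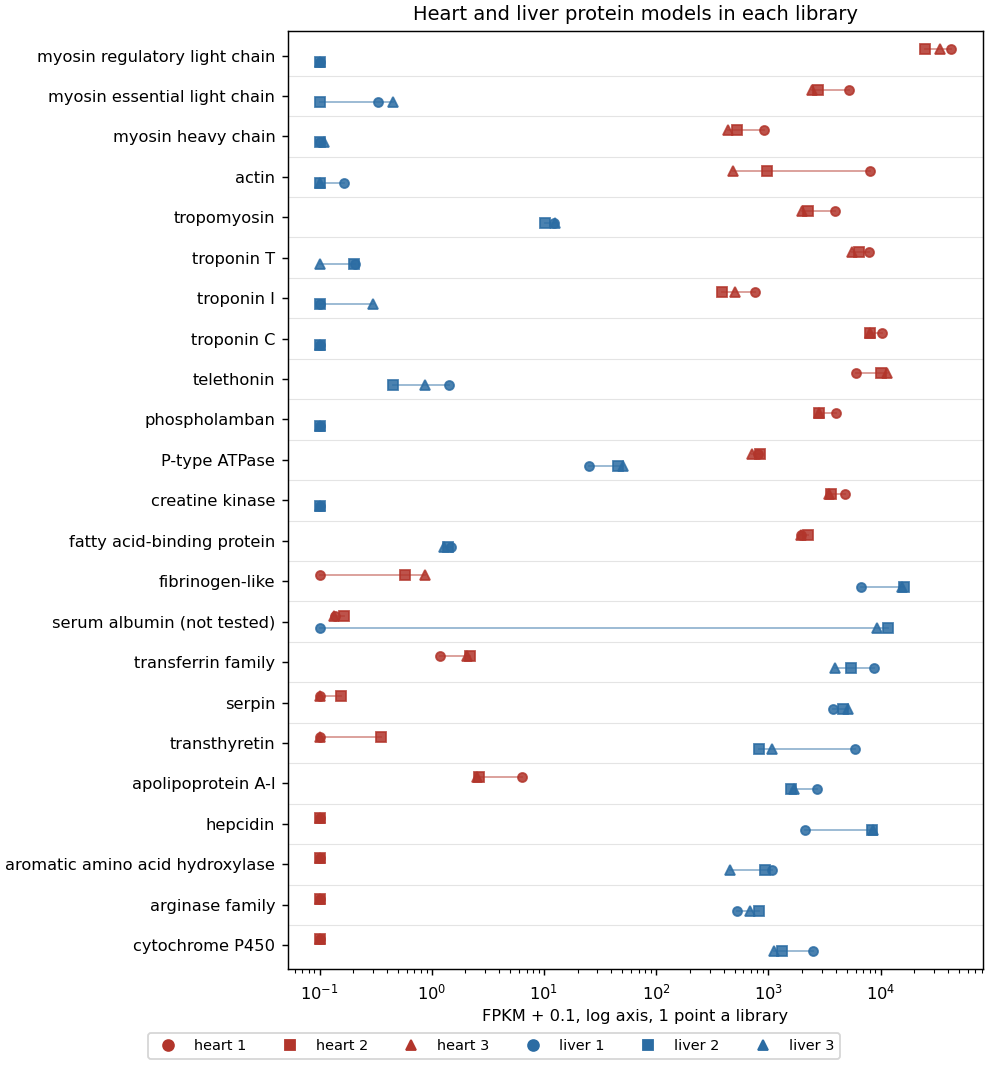
Level of 23 models in each library (FPKM + 0.1, log axis, 1 point a library), named by the protein pattern they carry, with heart in red and liver in blue. The upper 13 lie to the right in heart and the lower 10 in liver. Liver 1 is listed at 0 for serum albumin, and the 3 hearts are spread widest for actin.

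Calcium handling showed the same side for its best-known regulator. Phospholamban (GOAT_ENSBTAP00000017182) stood at 4038, 2814 and 2799.8 FPKM in heart and was listed at 0 in all 3 liver libraries. Among 20 P-type ATPases, the family of the calcium and sodium pumps, 7 were higher in heart, 7 higher in liver and 6 not called, which is 35% each way against 31.7% and 21.0% of all tested models. The member with the highest level, GOAT_ENSBTAP00000001838, stood at 807, 839 and 717 FPKM in heart and 25.03, 45.5 and 50.9 in liver, a log2 difference of 4.31 ± 0.28 (SE), and GOAT_ENSBTAP00000013169 at 263, 191 and 212 in heart and 94.4, 73.1 and 62.7 in liver. Connexins, which form the channels between neighbouring cells, were split by tissue. The connexin GOAT_ENSP00000282561 stood at 96.8, 130.3 and 103 FPKM in heart and 0.769, 3.13 and 2.71 in liver, and the connexin GOAT_ENSP00000354900 was listed at 0 in all hearts and stood at 275, 179.8 and 202 FPKM in liver. Of 7 tested connexins, 4 were higher in heart (57.1%, against 31.7%) and 2 higher in liver (28.6%, against 21.0%). Over the 28 tested models of calcium and ion transport, 12 were higher in heart (42.9%, against 31.7% of all tested models), 9 were higher in liver (32.1%, against 21.0%) and 7 were not called, with a median of 0.04 that turned negative when libraries were scaled by median ratios or to the same sum.

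Energy supply was higher in heart along several steps. Creatine kinase GOAT_ENSP00000221476 stood at 4826, 3599.97 and 3477 FPKM in heart and was listed at 0 in liver, and a further creatine kinase, GOAT_ENSBTAP00000001330, stood at 751, 593 and 559 in heart and 9.04, 9.41 and 10.1 in liver. Mitochondrial carriers, the family of the ADP/ATP exchanger, were led by GOAT_ENSBTAP00000017580, which stood at 4536, 3587 and 3467 FPKM in heart and 415, 137 and 103 in liver. Liver 1 was the highest of the livers there, at about 3 to 4 times the other two. The alpha and beta chains of ATP synthase were read from a shared pattern in GOAT_ENSBTAP00000017710 (2258, 1771 and 1581 FPKM in heart, 364, 354 and 403 in liver) and GOAT_ENSBTAP00000003259 (2256, 1645 and 1365 in heart, 353, 301 and 314 in liver), differences of 2.31 ± 0.19 and 2.41 ± 0.22 (SE) on the log2 scale. Cytochrome c, the electron carrier (GOAT_ENSBTAP00000050275), stood at 907, 805 and 722 FPKM in heart and 124, 428 and 284 in liver. Its call was lost without the filter on low values and with quantile normalization (adjusted p = 0.0681 and 0.0522). Of the 33 tested models of energy transfer, 18 were higher in heart (54.5%, against 31.7% of all tested models), 6 higher in liver (18.2%, against 21.0%) and 9 not called, with a median of 0.99. Of the 5 mitochondrial carriers higher in liver, GOAT_ENSBTAP00000015468 had the highest level there (3.91, 6.29 and 6.24 FPKM in heart, 77.2, 165.5 and 106 in liver). The group held 7.52% ± 1.16 (SD, n = 3) of the summed FPKM in heart and 0.972% ± 0.185 (SD, n = 3) in liver (exact two-sided permutation p = 0.1, the smallest possible). A single short model, GOAT_ENSBTAP00000008319, made up 5.48 of these percentage points in heart and 0.591 in liver. The rest of the group held 2.05% ± 0.302 (SD, n = 3) and 0.381% ± 0.0643 (SD, n = 3).

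A few of the models with the highest levels in heart had short deposited proteins. The model GOAT_ENSBTAP00000008319, of 50 residues and with the pattern of the ATP synthase inhibitor IF1, stood at 51933, 43970.5 and 38423 FPKM in heart and 4234, 3129 and 3088 in liver. The model GOAT_ENSBTAP00000015883, also of 50 residues and with the tail of the small heat shock protein HSPB1, had the highest mean of all models in heart, at 55614, 67202 and 80291 FPKM, against 4952, 5891 and 5601 in liver, where it was also among the 10 highest. The model GOAT_ENSBTAP00000014529, of 54 residues, carried a pattern of HSPB7, a small heat shock protein of heart and muscle, and stood at 14981, 11958 and 18972 FPKM in heart while listed at 0 in liver. Without the filter on low values, the calls of the first 2 were lost (limma adjusted p = 0.496 for GOAT_ENSBTAP00000008319 and 0.78 for GOAT_ENSBTAP00000015883). In both, no heart overlapped a liver, as in 61.3% of all tested models. FPKM divides by length, so the level of such short models depends more on how their length was counted than that of whole genes.

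Larger chaperones were not all on a single side. Of 6 HSP70 models, 1 was higher in heart (16.7%) and 2 in liver (33.3%), against 31.7% and 21.0% of all tested models. The other 3 were not called. The most abundant in heart, GOAT_ENSBTAP00000017497, stood at 522, 796 and 829.7 FPKM in heart and 497, 679.8 and 799.9 in liver, a log2 difference of 0.12 ± 0.26 (SE), and the tissues overlapped. The 2 called higher in liver included GOAT_ENSP00000324173, whose protein ends in a signal for staying in the endoplasmic reticulum (57.2, 110.2 and 121 FPKM in heart, 300.03, 497 and 502 in liver). Alpha-B crystallin, a small heat shock protein that protects desmin and actin (GOAT_ENSP00000227251), stood at 4572, 5762 and 8490.1 FPKM in heart and 7.98, 92.5 and 452 in liver 1, 2 and 3. The 3 livers thus spanned more than 50-fold while all lay below the hearts. Of all 16 tested models of chaperones, ubiquitin and L38, 7 were higher in heart (43.8%, against 31.7% of all tested models), 3 were higher in liver (18.8%, against 21.0%) and 6 were not called. The patterns of HSPB1, HSPB7, ubiquitin and L38 were written after values had been seen, so these shares are a description. Of the 7, ubiquitin gave 2, and HSPB1, HSPB7, L38, HSP70 and alpha-B crystallin gave 1 each. Products that every cell needs were among the most abundant in heart too. Ribosomal protein L38 (GOAT_ENSBTAP00000040182) stood at 8463, 10459 and 10329 FPKM in heart and 3467, 3635 and 3643 in liver. Its deposited protein has 49 residues, so the limit given for short models holds for its level too. A ubiquitin model (GOAT_ENSBTAP00000053003-D5) stood at 6169, 11284 and 9315 in heart and 2146, 2917 and 3113 in liver. Both calls were lost without the filter on low values (limma adjusted p = 0.526 and 0.312).

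Sugar metabolism did not move to a single side. Of 7 enzymes of this group with a pair of tested models, 3 had a member called in each direction, both members were higher in heart for phosphofructokinase and lactate dehydrogenase, and both were higher in liver for the carboxykinase and the bisphosphatase described further on. Aldolase, which splits the sugar of glycolysis in its middle steps, was measured by GOAT_ENSP00000378669, at 1135, 1291 and 1077 FPKM in heart and 71.4, 57.3 and 74.4 in liver, and by GOAT_ENSBTAP00000020413, at 1.87, 0.405 and 0.472 in heart and 3254, 2248 and 1090.2 in liver. The first differed by 4.09 ± 0.18 and the other by -10.11 ± 0.45 (SE) on the log2(FPKM + 1) scale. Pyruvate kinase, the last step of glycolysis, split alike, with GOAT_ENSP00000403265 at 298, 249 and 215 FPKM in heart and 5.198, 9.61 and 11.1 in liver and GOAT_ENSP00000408891 at 0.0429, 0.0394 and 0.0389 in heart and 45.4, 16.7 and 12.04 in liver. For enolase the heart model GOAT_ENSP00000370739 stood at 1021, 874 and 1003 FPKM in heart and 2.59, 3.27 and 2.16 in liver. Its partner GOAT_ENSBTAP00000017839 was present in both tissues, at 84.8, 70.1 and 83.04 in heart and 174, 168 and 218 in liver.

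Glycogen phosphorylase, which frees glucose units from glycogen, had 3 members. The model GOAT_ENSBTAP00000001373 stood at 253, 191 and 196 FPKM in heart and 0.142, 0.291 and 0.294 in liver, the model GOAT_ENSP00000216962 at 129.7, 65.97 and 54.1 in heart and 0.861, 0.914 and 0.777 in liver, and the model GOAT_ENSBTAP00000015277 at 14.3, 14.9 and 16.05 in heart and 136, 95.3 and 122 in liver. Hexokinase, which traps glucose in the cell, was split with GOAT_ENSBTAP00000016432 at 77.4, 64.6 and 52.7 FPKM in heart and 3.06, 4.11 and 4.68 in liver, and GOAT_ENSBTAP00000019834 at 0.439, 0.843 and 1.21 in heart and 3.304, 3.47 and 5.603 in liver. A further member, GOAT_ENSP00000290573, was low in both tissues and called higher in heart (1.11, 2.43 and 2.29 FPKM in heart, 0.0636, 0.198 and 0.583 in liver). Both phosphofructokinase models were called higher in heart, GOAT_ENSBTAP00000000358 (261, 152 and 185 FPKM in heart, 0.883, 0.497 and 0.411 in liver) by 6.95 ± 0.26 (SE) on the log2 scale. Lactate dehydrogenase GOAT_ENSP00000379386 was higher in heart at 2578, 1962 and 1686 FPKM, against 374, 397 and 535 in liver. The second, GOAT_ENSBTAP00000047729-D2, was also called higher in heart (27.5, 27.4 and 27.97 FPKM in heart, 12.4, 16.9 and 22.5 in liver, limma adjusted p = 0.0466). That call was lost without any 1 library other than liver 3 (adjusted p = 0.0875 to 0.122), without the filter on low values (0.0866), with the study's filter (0.0517), with 9 goat libraries in the fit (0.11) and with libraries at the same sum (0.386). Sugar transporters were split, with GOAT_ENSBTAP00000012109 at 45.3, 39.7 and 58.2 FPKM in heart and 0.5897, 0.9196 and 1.05 in liver and GOAT_ENSBTAP00000007085 listed at 0 in heart and at 215, 129 and 90.4 FPKM in liver.

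All 4 tested models of the enzymes that run glycolysis backwards were called higher in liver. The phosphoenolpyruvate carboxykinase GOAT_ENSBTAP00000002520, the entry to glucose synthesis, stood at 0, 0.117 and 0.0384 FPKM in heart and 909, 1004 and 209.9 in liver. Its relative GOAT_ENSBTAP00000015834 stood at 0.229, 0.753 and 0.457 in heart and 171, 229.6 and 159 in liver. Fructose bisphosphatase GOAT_ENSBTAP00000012835 stood at 1.79, 1.02 and 0.472 FPKM in heart and 682, 275 and 124 in liver 1, 2 and 3, so liver 1 was the highest. The fourth, GOAT_ENSBTAP00000012835-D2, has the same identifier with a suffix and lies on the same scaffold. How alike their sequences are was not tested, and it may share reads. It was listed at 0 in heart and stood at 0.676, 3.97 and 0.5496 FPKM in liver, and its call was lost without any 1 heart library (adjusted p = 0.1, 0.0955 and 0.0931). Over all 26 tested models of sugar metabolism, 14 were higher in heart (53.8%, against 31.7% of all tested models), 11 were higher in liver (42.3%, against 21.0%) and 1 was not called, with a median of 0.68. The group held 0.639% ± 0.0827 (SD, n = 3) of the summed FPKM in heart and 0.767% ± 0.311 (SD, n = 3) in liver, and these ranges overlapped (exact two-sided permutation p = 0.6).

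**Figure D3:**
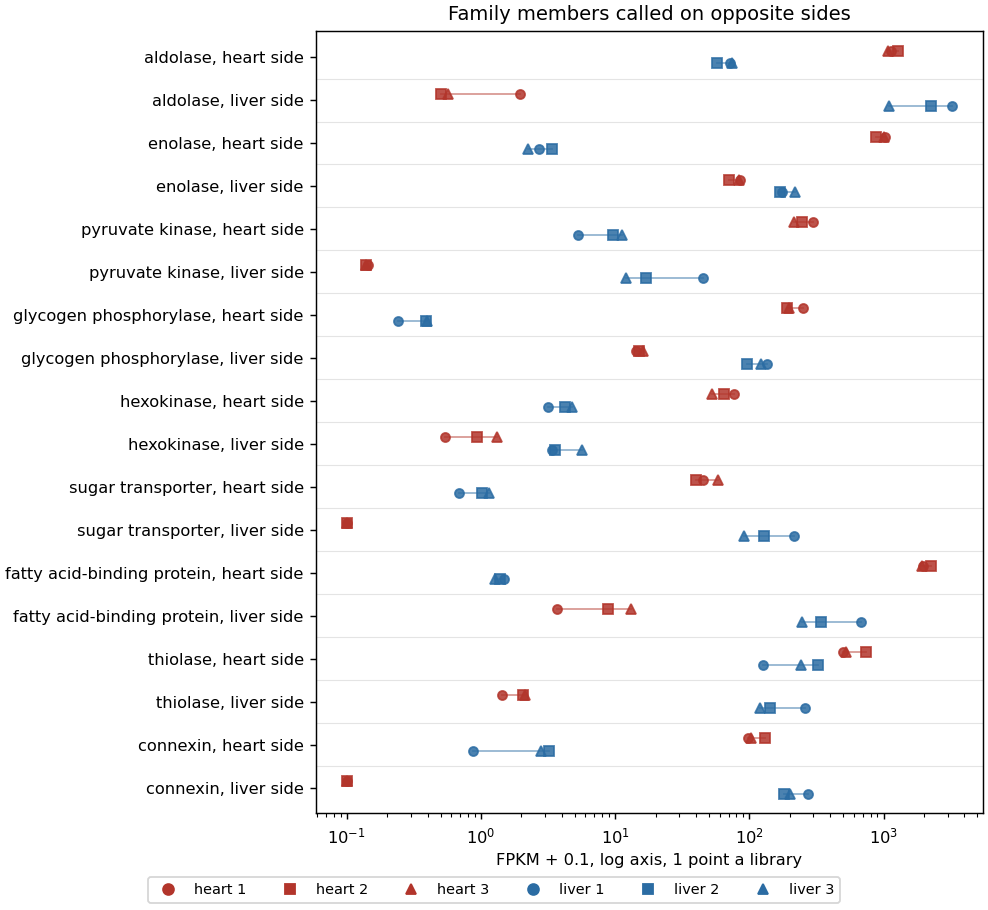
Level of pairs of related models in each library (FPKM + 0.1, log axis, 1 point a library, heart red, liver blue). The pairs were chosen for calls in opposite directions. In each of the 9 pairs the heart-side member lies further right in heart and the liver-side member further right in liver. The enolase pair has the smallest gap on the liver side.

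Fat metabolism was split between the tissues. Fatty acid-binding proteins, which carry fatty acids through the cell, were represented by GOAT_ENSP00000362817 at 1963, 2265 and 1943 FPKM in heart and 1.37, 1.298 and 1.18 in liver, and by GOAT_ENSP00000295834 at 3.58, 8.79 and 13.1 in heart and 681, 343 and 245 in liver. A further member, GOAT_ENSP00000256104, was higher in heart but varied among hearts, with 18.2, 353 and 205 FPKM there and 2.69, 7.65 and 2.51 in liver (limma adjusted p = 0.00743, and 0.0583 without the filter). Acyl-CoA dehydrogenases start the oxidation of fatty acids. The model GOAT_ENSP00000349297 was higher in heart (560.5, 689.8 and 442 FPKM, against 207, 215 and 155 in liver), and 3 of the other 4 were higher in liver by 0.93 to 1.17 on the log2 scale. Thiolases close each round of oxidation or join 2 acetyl units. Of 6, 1 was higher in heart (16.7%, against 31.7% of all tested models), 4 higher in liver (66.7%, against 21.0%) and 1 not called. The heart member was GOAT_ENSBTAP00000013310 (502, 736 and 529 FPKM in heart, 126, 327 and 244 in liver), whose call was lost without heart 2 (adjusted p = 0.0526), without the filter (0.0664), with libraries at the same sum (0.054) and with quantile normalization (0.05 after rounding, just above the threshold). The liver member with the largest difference was GOAT_ENSP00000356015 (1.35, 1.97 and 2.03 in heart, 258, 143 and 120.3 in liver).

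For ketone body synthesis the pattern of HMG-CoA synthase was used. The pattern does not tell which of its models serves that pathway, and this was not tested. The model GOAT_ENSP00000358414 was listed at 0 in all 3 hearts and stood at 386, 161 and 44.03 FPKM in liver 1, 2 and 3. The second model, GOAT_ENSBTAP00000036625, was not called, with 22.5, 19.96 and 18.3 FPKM in heart and 76.7, 14.9 and 14.95 in liver. Over the 13 tested models of ketone and fatty acid metabolism, 2 were higher in heart (15.4%, against 31.7% of all tested models), 8 were higher in liver (61.5%, against 21.0%) and 3 were not called, with a median of -1.09. Liver 1 was the highest liver for both synthases. The same library was the highest for 7 of the 8 ketone and fatty acid models called higher in liver, against 35.1% of all models called higher in liver.

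Nitrogen disposal was on the liver side. Argininosuccinate synthase (GOAT_ENSBTAP00000027649), which fixes the amino group of aspartate in the urea cycle, stood at 1.56, 2.39 and 1.56 FPKM in heart and 1409, 1700.4 and 847 in liver, a log2 difference of -8.82 ± 0.29 (SE). A carbamoyltransferase (GOAT_ENSBTAP00000001947) and a model of the arginase family (GOAT_ENSBTAP00000016461), families that open and close the cycle, were listed at 0 in all 3 hearts and stood at 175, 85.8 and 57.7 and 525, 827 and 687 FPKM in liver. A lyase of the family that releases fumarate (GOAT_ENSBTAP00000020365) stood at 8.27, 5.58 and 6.79 FPKM in heart and 167, 124 and 55.8 in liver. An aromatic amino acid hydroxylase (GOAT_ENSP00000303500), a family that breaks down phenylalanine, was listed at 0 in heart and stood at 1076, 932 and 454 FPKM in liver. Of 9 tested models, 7 were higher in liver (77.8%, against 21.0% of all tested models) and 1 was higher in heart (11.1%, against 31.7%), with a median of -6.28. The exception, GOAT_ENSP00000390107 (17.8, 14.1 and 16.4 FPKM in heart, 8.87, 9.87 and 11.4 in liver), carried the fumarate lyase pattern, which fumarase of the citric acid cycle shares with the urea cycle enzyme. Its call was lost with libraries at the same sum (adjusted p = 0.391), with median ratio scaling (0.0878) and without heart 1, 2 or 3 or liver 1 or 2 (0.0877, 0.0594, 0.0994, 0.0585 and 0.0869).

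Proteins of blood plasma held the largest share of the liver's summed FPKM among the pattern groups. Of 72 tested models, 52 were higher in liver (72.2%, against 21.0% of all tested models), 9 were higher in heart (12.5%, against 31.7%) and 11 were not called, with a median of -4.34. They held 13.86%, 23.71% and 20.26% of the summed FPKM in liver 1, 2 and 3 and 0.0572% ± 0.0195 (SD, n = 3) in heart (exact two-sided permutation p = 0.1, the smallest possible). The 3 chains with the fibrinogen-like C-terminus and the highest levels sit side by side on scaffold 806 between bases 723357 and 777844, with no other deposited protein between them. They are GOAT_ENSP00000384552 (0, 0.475 and 0.779 FPKM in heart, 6719.7, 16272 and 15546 in liver), GOAT_ENSP00000306361 (0, 0.0225 and 0 in heart, 3258, 6251 and 7489.9 in liver) and GOAT_ENSP00000306099 (0, 0.214 and 0 in heart, 6140.1, 11245 and 6868 in liver). Fibrinogen is the clotting protein made of 3 different chains. Elsewhere in the genome the same C-terminus was higher in heart in 5 models, the largest being GOAT_ENSBTAP00000012815 (28.3, 67.97 and 54.5 FPKM in heart, 5.58, 4.21 and 9.495 in liver).

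Carriers of the plasma were among the most abundant models in liver. Transferrin, the iron carrier (GOAT_ENSBTAP00000009564), stood at 1.09, 2.11 and 1.97 FPKM in heart and 8748, 5447 and 3936 in liver. Fetuin-A (GOAT_ENSBTAP00000000673), a binder of calcium phosphate, stood at 0, 0 and 0.0777 FPKM in heart and 6232, 2993 and 5103 in liver. Retinol-binding protein 4 (GOAT_ENSBTAP00000000566) stood at 8.27, 17.9 and 8.86 in heart and 4789, 3710.4 and 4382 in liver, and transthyretin (GOAT_ENSBTAP00000014585), its partner in blood, at 0, 0.253 and 0 in heart and 5913, 828 and 1077 in liver. Transthyretin was thus over 5 times higher in liver 1 than in the other livers, while its partner was nearly level among them. The precursor of alpha-1-microglobulin (GOAT_ENSP00000265132), a haem-binding protein, stood at 0, 0.0709 and 0 FPKM in heart and 5849, 4092 and 3493 in liver. Apolipoprotein A-I (GOAT_ENSP00000352471), of high-density lipoprotein, stood at 6.27, 2.55 and 2.41 FPKM in heart and 2702, 1606 and 1689 in liver.

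Serum albumin was not tested. The model GOAT_ENSBTAP00000022763 was listed at 0 in liver 1 and stood at 11676 and 9247 FPKM in liver 2 and 3, so only 2 of the 6 libraries exceeded 0.5 FPKM, and the hearts stood at 0.0368, 0.0668 and 0.0335 FPKM. It lies beside 2 of its relatives on scaffold 1281. The relative GOAT_ENSP00000226355 was listed at 0 in heart and stood at 99.1, 55.5 and 59.2 FPKM in liver, with liver 1 the highest. A zero in a table without counts may be a failed estimate, and whether liver 1 lacked the transcript was not tested. A further member of the albumin family on another scaffold, GOAT_ENSP00000421725, was even across livers at 4022, 4200.2 and 4120.2 FPKM and close to 0 in heart (0, 0.136 and 0 FPKM).

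Protease inhibitors and proteases of blood were also on the liver side. Among 19 tested serpins, 13 were higher in liver (68.4%, against 21.0% of all tested models), 2 were higher in heart (10.5%, against 31.7%) and 4 were not called. Neighbouring serpin models on scaffold 1665, between bases 17933 and 66480, were all called higher in liver. They were GOAT_ENSBTAP00000009261-D2 (3787, 4643 and 5076 FPKM in liver), goat_GLEAN_10000493 (539, 589 and 658) and GOAT_ENSBTAP00000009261 (202, 654 and 544), with hearts at or near 0. How far these neighbours resemble each other was not tested, and they may share reads. A different serpin chain, goat_GLEAN_10005877, was listed at 0 in heart and stood at 3192, 4018 and 4183 FPKM in liver. Serine proteases with the trypsin-like active site gave 16 tested models. Of these, 14 were higher in liver (87.5%, against 21.0%) and 1 was higher in heart (6.25%, against 31.7%). The one with the highest level, GOAT_ENSBTAP00000049470, stood at 1403, 1099.95 and 779.5 FPKM in liver. Members on the heart side stood far lower, with the protease GOAT_ENSP00000273857 at 25.2, 23.8 and 13.5 FPKM in heart and listed at 0 in liver, and the serpin GOAT_ENSBTAP00000031243 at 39.4, 70.4 and 76.5 in heart and 0.0506, 0.743 and 2.66 in liver. The antimicrobial peptides hepcidin, which also sets iron uptake (GOAT_ENSBTAP00000022658), and LEAP-2 (GOAT_ENSBTAP00000025186) were both listed at 0 in heart. Their liver levels were 2116, 8321 and 8627 and 3918, 3038 and 3124 FPKM.

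**Figure D4:**
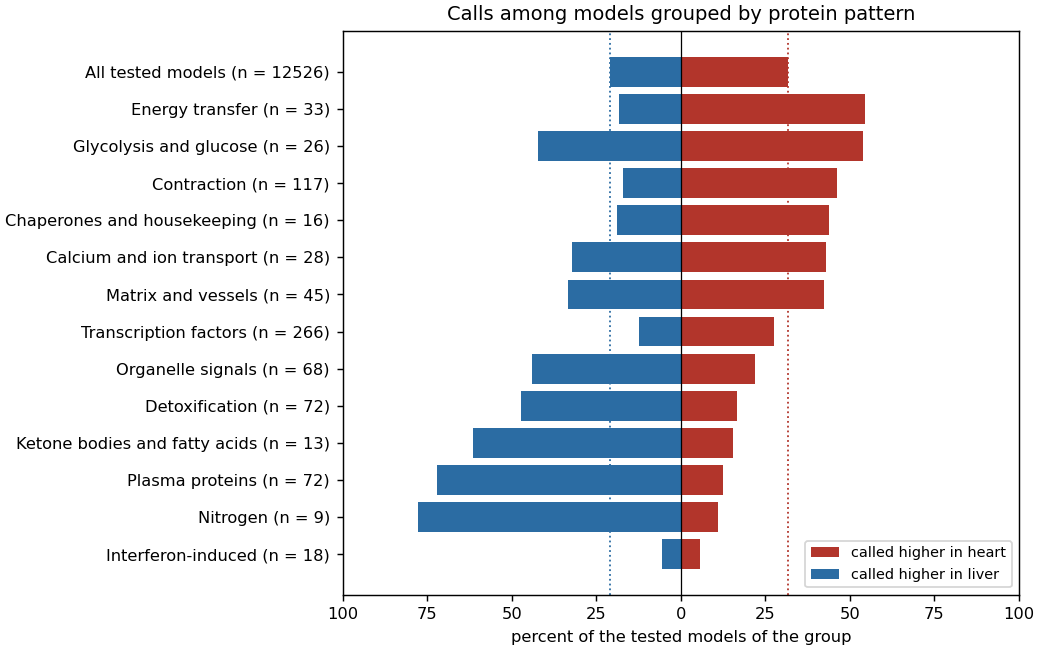
Share of the tested models of each pattern group called higher in heart (red, to the right) or in liver (blue, to the left), with the shares over all 12526 tested models on top and as dotted lines (31.7% and 21.0%). Plasma proteins (52 of 72) and nitrogen metabolism (7 of 9) extend furthest to the liver side, and sugar metabolism has high shares on both. Some patterns were written after values had been seen, among them all those of the interferon-induced group.

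Detoxification was on the liver side but varied among livers. Of 72 tested models, 34 were higher in liver (47.2%, against 21.0% of all tested models), 12 were higher in heart (16.7%, against 31.7%) and 26 were not called, with a median of -1.02. The largest family, 34 ABC transporters, which move lipids, drugs and bile salts across membranes, was mostly not called. In it 10 were higher in liver (29.4%, against 21.0%), 6 higher in heart (17.6%, against 31.7%) and 18 not called (median -0.09). Among the other 38 models, 24 were higher in liver (63.2%) and 6 higher in heart (15.8%). Of 23 tested cytochromes P450, 15 were higher in liver (65.2%, against 21.0%), 5 higher in heart (21.7%, against 31.7%) and 3 not called. Their median was -2.63. The model GOAT_ENSBTAP00000024437 was listed at 0 in heart and stood at 2502, 1312 and 1116 FPKM in liver. The model GOAT_ENSBTAP00000008918 stood at 571, 69.7 and 5.62 FPKM in liver 1, 2 and 3, a spread of about 100-fold within a tissue, and was listed at 0 in heart (limma adjusted p = 0.00831, and 0.0638 without the filter). Of the 5 higher in heart, GOAT_ENSBTAP00000015892 had the highest level (28.1, 12.6 and 15.7 FPKM in heart, 2.61, 1.09 and 2.58 in liver). All 4 tested UDP-glucuronosyltransferases, which tag drugs and bilirubin for excretion, were higher in liver. The highest, GOAT_ENSP00000418532, was listed at 0 in heart and stood at 228, 94.5 and 143 FPKM in liver. Of the zinc alcohol dehydrogenases, GOAT_ENSBTAP00000035716 was called (6.96, 4.06 and 4.13 FPKM in heart, 663, 308 and 152 in liver) and GOAT_ENSP00000426083 was not (limma adjusted p = 0.255). The latter stood at 1037, 19.9 and 14.8 FPKM in liver 1, 2 and 3, so that only liver 1 lay above all 3 hearts (22.6, 9.27 and 14.9). Liver 1 was the highest liver for 17 of the 34 detoxification models called higher in liver, against 35.1% of all models called higher in liver.

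Transcription factors stood at far lower levels. Of 266 tested models with a factor pattern, 73 were higher in heart (27.4%, against 31.7% of all tested models), 33 were higher in liver (12.4%, against 21.0%) and 160 were not called, with a median of 0.13, the same as over all models. Most of them, 212, were multi-finger C2H2 proteins, a large family of zinc finger factors. Of these, 54 were higher in heart (25.5%, against 31.7%), 14 higher in liver (6.6%, against 21.0%) and 144 not called. Among the 56 models with another factor pattern, 19 were higher in heart (33.9%) and 20 higher in liver (35.7%). When libraries were brought to the same sum, 56 were higher in heart and 70 higher in liver, so the split of the group has no fixed direction. Individual members differed widely. The T-box factor GOAT_ENSP00000309913 stood at 18.8, 21.96 and 25.8 FPKM in heart and was listed at 0 in liver, while its relative on the same scaffold, GOAT_ENSBTAP00000028930, stood at 1.57, 1.53 and 1.98 in heart and 13.7, 8.98 and 17.3 in liver. T-box factors pattern the chambers and conduction system of the heart. The homeobox factor GOAT_ENSP00000327758 stood at 28.4, 26.9 and 24.7 FPKM in heart and 0, 0 and 0.126 in liver. All 3 tested GATA factors were higher in heart, GOAT_ENSP00000269216 by the most (78.9, 46.7 and 54.7 FPKM in heart, 12.97, 5.46 and 5.9997 in liver).

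On the liver side, the forkhead factor GOAT_ENSP00000304004 was listed at 0 in heart and stood at 35.1, 37.5 and 62.4 FPKM in liver, and the nuclear receptor GOAT_ENSP00000343807 was listed at 0 in heart and stood at 71.4, 75.1 and 68.1 in liver. Nuclear receptors are factors switched by steroids, bile acids, fatty acids and other small molecules. Of 24 tested, 10 were higher in liver (41.7%, against 21.0% of all tested models) and 4 were higher in heart (16.7%, against 31.7%), and the 2 with the highest levels were among the latter. These were GOAT_ENSBTAP00000036275 (101.0, 157 and 159 FPKM in heart, 26.4, 36.1 and 40.4 in liver) and GOAT_ENSBTAP00000014236 (90.03, 83.02 and 71.97 in heart, 30.1, 15.9 and 16.7 in liver).

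Part of the variation within each tissue went with the library number. Deviations from the tissue mean correlated between the heart and liver libraries of a number (0.40, 0.22 and 0.39 for numbers 1, 2 and 3 over tested models) and did so less between numbers (-0.36 to 0.08). Some models were low in both libraries numbered 1. In 22 models, heart 1 and liver 1 each lay over 8-fold below the other 2 libraries of their tissue, with the latter all above 5 FPKM. No model did so for number 2 or 3. On the high side, 4 models lay over 8-fold above the other libraries of their tissue in both libraries of a number. Of these 4, 3 were high in number 1 and 1 in number 2. All 22 were also lowest in kidney 1 of the 3 kidney libraries. These models were picked by these values, so the counts are a description. Of the 22, 10 carried a pattern of proteins that cells make in response to interferon, the signal of viral infection. The patterns were chosen after these proteins had been seen.

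ISG15, a ubiquitin-like tag (GOAT_ENSP00000368699), stood at 2.98, 606 and 2559 FPKM in heart 1, 2 and 3 and 81.6, 2149.6 and 4969 in liver 1, 2 and 3. An oligoadenylate synthetase, which senses double-stranded RNA (goat_GLEAN_10016577), stood at 3.91, 159 and 249 FPKM in heart and 43.2, 465 and 928 in liver. The antiviral GTPase of the Mx type GOAT_ENSBTAP00000041289 stood at 3.197, 83.5 and 251 in heart and 21.1, 222 and 518 in liver, and GOAT_ENSBTAP00000011146 at 0.398, 41.7 and 35.1 in heart and 2.302, 89.7 and 175 in liver. In all 4, number 3 exceeded number 1 by over 10-fold in both tissues. An IFIT protein, a binder of viral RNA (GOAT_ENSBTAP00000010366), stood at 2.92, 87.9 and 355 FPKM in heart and 34.9, 192 and 1088 in liver. Over all 18 models with such patterns, 15 were lowest in number 1 of both tissues, against 36.5% of all tested models. The 18 include 5 with a pattern of the whole dynamin family, Mx included, and 2 receptor-transporting proteins. Whether each of them responds to interferon was not tested. Of the 18, 10 are among the 22 picked for being low in number 1, and the patterns were chosen after these had been seen. The count is therefore a description and no separate support.

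Few of these models were called between the tissues without the block. Of the 18, 2 were called, 1 higher in heart and 1 higher in liver (5.56% each, against 31.7% and 21.0% of all tested models). The one higher in heart carried the dynamin family pattern, and the one higher in liver that of receptor-transporting proteins. With the library number as a block 12 of the 18 were called, against 7480 of all 12526 tested models, so the blocked share was near that of all models. With the block the adjusted p of ISG15 (GOAT_ENSP00000368699) went from 0.45 to 0.0195, that of the oligoadenylate synthetase goat_GLEAN_10016577 from 0.299 to 0.00242, and that of the guanylate-binding protein GOAT_ENSBTAP00000019785 from 0.167 to 0.000381 (limma). Both Mx models and the IFIT protein were also called only with the block, GOAT_ENSBTAP00000041289 with an adjusted p of 0.00449, GOAT_ENSBTAP00000011146 with 0.00461 and GOAT_ENSBTAP00000010366 with 0.00762. ISG15 and the synthetase were lower in heart, with log2 differences of -2.39 and -2.20. Without heart 1 the difference of ISG15 changed sign (0.38, adjusted p = 0.879), as did those of both Mx models. The guanylate-binding protein was higher in heart, at 6.53, 53.6 and 55.3 FPKM there and 0.593, 13.3 and 15.8 in liver.

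Haptoglobin and serum amyloid A, which the liver releases in inflammation, were also lowest in liver 1. They are named here after their values were seen, and other plasma proteins of the liver were not alike in this. Over the 52 plasma protein models called higher in liver, liver 1 was lowest for 22 and highest for 27. The tested model of the family of alpha-2-macroglobulin, a protease trap (GOAT_ENSP00000261336), stood at 674, 723 and 429 FPKM in liver and 23.9, 14.1 and 16.98 in heart. Haptoglobin, the carrier of free haemoglobin (GOAT_ENSP00000348170), had the highest mean of all models in liver. It stood at 17.3, 28349.7 and 27017 FPKM in liver 1, 2 and 3 and at 0.2396, 16.2 and 10.6 in heart 1, 2 and 3. Liver 1 was therefore at the level of heart 2, and the difference of -8.58 had an SE of 2.74 (limma adjusted p = 0.0323, and 0.00331 with the block). The call was lost without heart 1, 2 or 3 or liver 2 or 3 (0.113, 0.0605, 0.0668, 0.107 and 0.102) and without the filter (0.153). Serum amyloid A was read from 4 neighbouring models on scaffold 825, between bases 1322661 and 1392173. Of these GOAT_ENSP00000278222-D4 (364, 9784 and 3596 FPKM in liver) and GOAT_ENSBTAP00000003858 (369.6, 901 and 1337) were called higher in liver, with hearts at or near 0. The other 2 were present in both tissues. The model GOAT_ENSBTAP00000030311 stood at 0.658, 21.8 and 9.77 FPKM in heart and 2.701, 434 and 129.8 in liver, and its adjusted p went from 0.186 to 0.00623 with the block and to 0.00844 without liver 1. The model GOAT_ENSBTAP00000052221 stood at 0.938, 38.9 and 59.8 in heart and 6.63, 93.5 and 40.7 in liver and was called in neither fit. All 4 were lowest in liver 1. How alike their sequences are was not tested, and they may share reads.

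A model with the start of agouti signalling protein, a skin signal that blocks melanocortin receptors and turns pigment cells to yellow pigment (GOAT_ENSP00000364092), was also among the 22 models low in number 1. It stood at 9.92, 5983 and 4723 FPKM in heart 1, 2 and 3 and 9.74, 3392 and 2979 in liver 1, 2 and 3, and at 1.92, 3515 and 2353 in kidney. Levels in number 2 and 3 were over 300-fold above number 1 in both tissues, and within a number heart and liver were within 2-fold. The protein deposited for this model has 75 residues and lies on scaffold 849, bases 254157 to 255697, on the minus strand. The tissue difference was 0.50 ± 2.99 (SE) on the log2 scale (limma adjusted p = 0.901). A far weaker model of the 22, goat_GLEAN_10014132, was likewise nearly level between tissues within a number. It stood at 0, 21.9 and 23.03 FPKM in heart, 0, 18.1 and 28.04 in liver and 0, 20.6 and 15.97 in kidney.

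**Figure D5:**
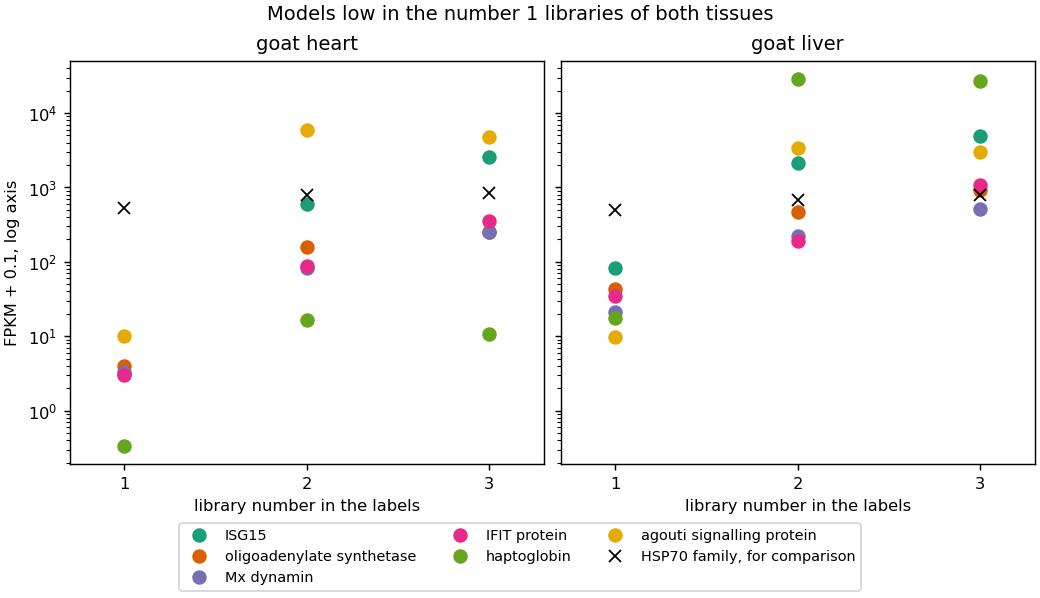
Level of 7 models in the libraries numbered 1, 2 and 3 of heart (left) and liver (right), as FPKM + 0.1 on a log axis, 1 point a library. The 6 models shown in colour were chosen for being low in number 1, and the HSP70 family model marked with crosses varies less across libraries.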

How the data were processed

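Messenger RNA libraries of goat heart and goat liver (3 each) were used. By the study's methods, reads were mapped with TopHat to CHIR_1.0 and quantified with Cufflinks, version 2.2.1 in the submitters' processing notes, which list the cattle build UMD3.1 for these samples, so the build of the coordinates is uncertain. The authors deposited log2(FPKM + 1) values per gene model and library, from which FPKM was restored by undoing the logarithm and subtracting the pseudocount of 1. No counts were used here, so depth is unknown. The goat heart columns were matched to samples by species prefix, tissue and number. Models above 0.5 FPKM in at least 3 of 6 libraries were compared with limma 3.58.1 (R 4.3.3; eBayes with a trend, Benjamini-Hochberg, threshold 0.05) after a test on simulated data. In the simulated data 200 of 12526 models were changed. Changes of 1, 2 and 3 on the log2 scale were recovered for 0.0%, 71.5% and 93.0% of them. In the real data 6612 models (52.8%) were called, 4831 of them with a difference of at least 1. With so many called, the Benjamini-Hochberg adjustment was less strict there, so the percentages recovered do not carry over. A model not called may still differ. The study itself used a read-based test, which needs data not used here. Shares were compared by exact permutation (scipy 1.17.1). p-values measure the spread between these libraries.

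The comparison was fitted without a block. Deviations correlated between libraries of the same number (0.40, 0.22 and 0.39), so a fit with the number as a block is given where it changes a call. The study's methods describe tissues of 3 females a population, so heart and liver share animals, but the labels do not say that a number marks an animal. Named models were the 10 highest in each tissue, the 10 largest called differences in each direction with no overlap, and the highest or contrary members of each family. Members, families and patterns were chosen with earlier results of these data known. The patterns of troponin C, the essential light chain, HSPB1, HSPB7, ubiquitin, L38, IF1, the serpin chains, phospholamban, the interferon-induced proteins and agouti were written after values had been seen. Planned naming by protein match was replaced by patterns, since no reference proteins were used here. Alternatives covered the pseudocount, filter, scaling, fit, pairing, a fold limit and each library left out.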

Additional observations from a re-analysis of the deposited data

How the results depend on the processing

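The calls were 6612 as reported and 4809 to 7480 under the other settings, and no model was called in opposite directions by any of them. With libraries scaled to the same sum, 3988 models were higher in liver in place of 2635, and 41.49% of the calls were higher in heart. With the filter of the study's methods, 156 and 121 models with a pattern were called higher in heart and liver, in place of 235 and 226, since fewer models were tested. The limit on fold, a difference of at least 1 as well, left 2815 and 2016 calls.

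Leaving out 1 library at a time gave 5378 to 6835 calls, of which 3184 to 4091 were higher in heart and 2142 to 3085 higher in liver. The models with a pattern called then were 206 to 243 higher in heart and 202 to 245 higher in liver. The difference in the share of summed FPKM was 7.681 to 9.506 percentage points for contraction and -21.93 to -17.00 for plasma proteins. Over tested models only, an alternative chosen after seeing the data, these were 8.753 and -18.32.

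With the library number as a block, 7480 models were called (58.1% higher in heart). The named models whose call it changed are given with their blocked p in the report, and no other named call changed with it.

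A few named models that were not called changed direction. For the HSP70 model GOAT_ENSBTAP00000017497 the difference became -0.094 with median ratio scaling, -0.35 with libraries at the same sum and -0.30 with quantile normalization. With 1 library left out, it lay between -0.072 and 0.33 for that model, -4.29 and 0.38 for ISG15 (GOAT_ENSP00000368699), -2.93 and 0.093 for the Mx model GOAT_ENSBTAP00000041289, -3.29 and 0.066 for the Mx model GOAT_ENSBTAP00000011146, -1.90 and 0.66 for the serum amyloid A model GOAT_ENSBTAP00000052221, all of these 4 highest without heart 1, -0.73 and 0.41 for the HMG-CoA synthase GOAT_ENSBTAP00000036625, highest without liver 1, -2.23 and 3.48 for the agouti model GOAT_ENSP00000364092, and -1.52 and 1.51 for goat_GLEAN_10014132, both highest without heart 1. The cause was not tested.

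Alternative names by a stricter protein match were not run, since no reference proteins were used here. Zeros in a single library, as for serum albumin in liver 1, and levels of short or duplicated models limit single values.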

Other observations

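Among the 10 highest models of each tissue, 3 carried no deposited protein and so no family. In heart these were GOAT_ENSBTAP00000047840, at 11924, 10892 and 10078 FPKM in heart and 1488, 1525 and 1532 in liver, and GOAT_ENSP00000384239, at 11659.5, 8934 and 9581 in heart and listed at 0 in liver. In liver it was GOAT_ENSP00000376795, at 0, 0.154 and 0.102 FPKM in heart and 4274, 7642 and 7150.02 in liver. A further model without a protein, GOAT_ENSBTAP00000008425, stood at 8354, 7638 and 7401 in heart and 0.0924, 0 and 0.0944 in liver and was among the 10 largest called differences. The call of GOAT_ENSBTAP00000047840 was lost without the filter on low values (limma adjusted p = 0.0527). Each of these models kept its heart and liver libraries apart, as did 61.3% of all tested models.

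Models with address signals at the end of the protein were called higher in liver more often than in heart, against 21.0% and 31.7% of all tested models. Of 50 tested models ending in a peroxisomal signal, 22 were higher in liver (44%) and 11 higher in heart (22%), with a median of -0.81. Of 18 ending in a signal for retention in the endoplasmic reticulum, 8 were higher in liver (44.4%) and 4 in heart (22.2%). Their median was -0.65. Peroxisomes shorten very long fatty acids and take part in making bile acids. The peroxisomal-signal model with the highest level in liver, GOAT_ENSP00000360569, which also carries a thiolase pattern, stood at 51.8, 61.3 and 53.5 FPKM in heart and 854, 541 and 355 in liver. The largest difference on the heart side was GOAT_ENSBTAP00000014219, at 159, 132 and 161 in heart and 0.111, 0.398 and 0.115 in liver.

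Structural proteins outside the sarcomere were split. Of 36 tested collagens and collagen-like proteins, 15 were higher in heart (41.7%, against 31.7% of all tested models), 10 higher in liver (27.8%, against 21.0%) and 11 not called, with a median of 0.34. The highest in liver were short collagen-like models, GOAT_ENSBTAP00000001165 (327, 248 and 407 FPKM in liver) and GOAT_ENSBTAP00000037834 (422, 153 and 269 in liver), both listed at 0 in heart. Of 9 tested intermediate filament models, 4 were higher in heart (44.4%, against 31.7%) and 5 higher in liver (55.6%, against 21.0%). The heart members with the highest levels were GOAT_ENSP00000224237 (246, 202 and 182 FPKM in heart, 40.6, 39.3 and 36.2 in liver) and GOAT_ENSP00000336775 (108, 92.6 and 89.97 in heart, 1.67, 1.57 and 1.39 in liver). The only tested haemoglobin beta-like chain, GOAT_ENSBTAP00000050256-D3, stood at 1.999, 1.34 and 1.57 FPKM in heart and 2.23, 0.786 and 0.621 in liver, where liver 1 was the highest, and was called higher in heart without liver 1 only (adjusted p = 0.0259).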
